A study of Mus musculus with 6 samples.

Results

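A set of 34 genes for the uptake and oxidation of fatty acids was followed in the ventricles of *Tbx5ua*-knockdown (KD) and wildtype (WT) mouse embryos. The genes were taken by symbol from the 23284 genes of the deposited expression table, and all 34 were listed. Both groups held 3 embryos at E9.5 (embryonic day 9.5) of strain C57BL/6 (the ES cells came from C57BL/6 J), made by tetraploid complementation, in which the embryo proper grows from injected ES cells. WT embryos came from unedited ES cells. KD embryos (genotype Tbx5ua -/-) came from clonal ES cells in which both alleles of *Tbx5ua*, the lncRNA transcribed divergently from *Tbx5*, carried 3 tandem polyadenylation signals in the second exon. The selection cassettes had been removed with Cre in these cells, and the sources used here do not say which edited ES cell line the sequenced embryos came from.

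Fatty acids are taken up across the plasma membrane, carried by binding proteins, activated to acyl-CoA and moved into mitochondria as carnitine esters, where each turn of β-oxidation releases acetyl-CoA and passes electrons to the respiratory chain. The adult heart draws most of its energy from this pathway, whereas the early embryonic heart is known to rely largely on glucose. Transcription of the pathway is controlled by peroxisome proliferator-activated receptors, estrogen-related receptors and the coactivator encoded by *Ppargc1a*.

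For each group the table gives 1 value per gene, in FPKM (fragments normalised to transcript length and library size), made from the 3 libraries together. Values of single embryos, read counts and library totals were not part of it. No SD, test or interval could be computed from these group values, and the test columns that the authors deposited beside them were not used. The depth is unknown, and the differences below are therefore given without a replicate check. Differences are given as log2 ratios of KD over WT on the log2(FPKM + 1) scale, for genes that reached 1 FPKM in WT or in KD. Of all genes 11606 met this minimum, with a median log2 ratio of 0.00. The tissue label was compared with marker genes. All 10 cardiomyocyte markers were present in both groups, with 2 higher and 8 lower in KD and a median log2 ratio of -0.06, led by *Myl7* with 13643 FPKM in WT and 12907 in KD, and blood was also present, with *Hba-x* at 4401 FPKM in WT and 4318 in KD. *Tbx5ua* itself was not analysed here, and *Tbx5* was at 17.2 FPKM in WT and 15.7 in KD.

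Most of the fatty acid genes were expressed in the E9.5 ventricle. The WT values ran from 0.070 FPKM for *Ppara*, which is below the minimum, to 561 FPKM for *Etfb*. Among the genes with at least 1 FPKM in WT the lowest was *Slc27a1*, at 2.23 FPKM. In WT ventricles 8 genes had at least 100 FPKM, 13 had from 10 to 100 FPKM, 8 had from 1 to 10 FPKM and 5 had less than 1 FPKM. The 34 values summed to 2649 FPKM in WT and 2790 in KD, which is 0.308% and 0.318% of the sum over all genes. The order of the levels was nearly kept: 21 genes had the same rank in both groups, and the largest shift was 3 places. The 5 highest genes were *Etfb*, *Fabp3*, *Fabp5*, *Etfa* and *Hadh*, in this order in both groups.

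**Figure D1:**
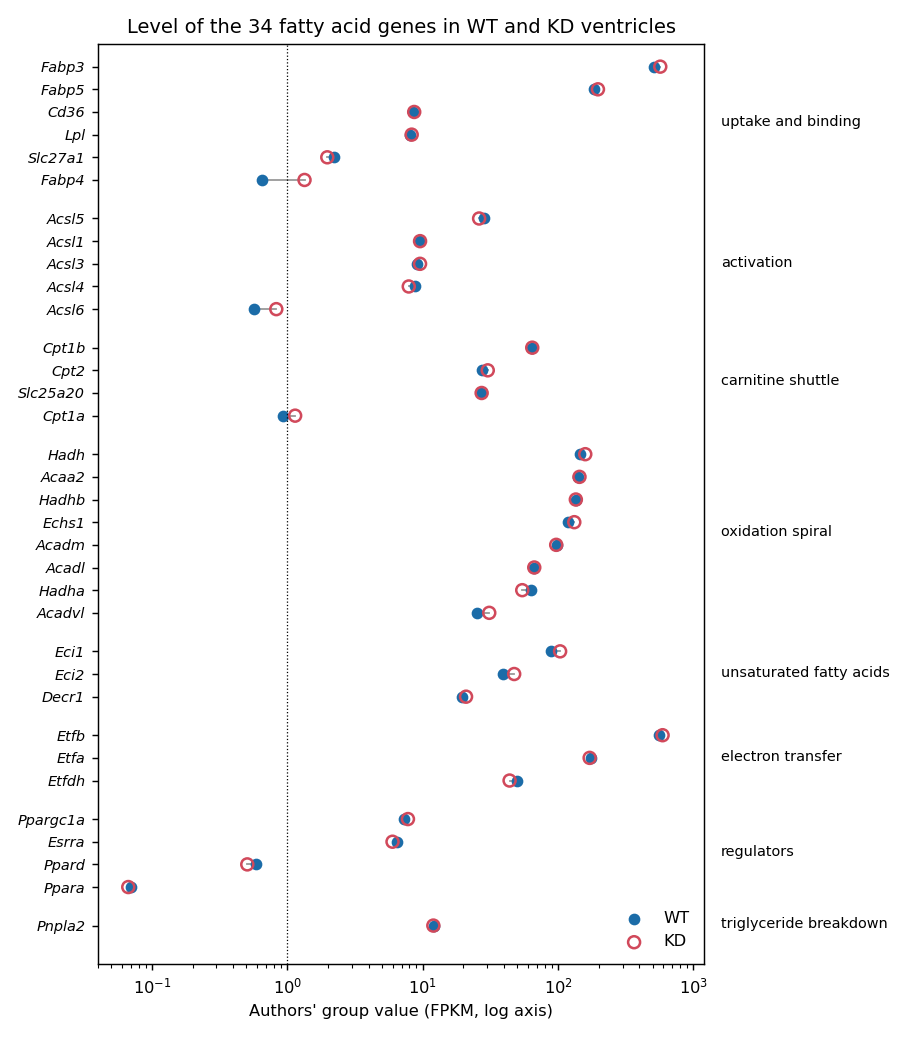
Authors' group value of each of the 34 genes in FPKM (horizontal log axis), by role, with WT as filled and KD as open circles; each symbol is 1 value made from 3 embryos, so there are no error bars, and the dotted line marks 1 FPKM. The filled and open circles nearly coincide for most genes, and the widest gap is that of Fabp4, from 0.654 to 1.34 FPKM.

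Between the groups the levels differed little. Of the 31 genes that met the minimum, 0 were higher and 0 were lower in KD by at least 1.5-fold (a log2 ratio of 0.58), where 2.2% of all genes were higher and 1.46% lower by that much. At a smaller difference, a log2 ratio of at least 0.32 in either direction, 1 gene of 31 was higher (*Fabp4*) and 0 were lower, beside 8.8% and 6.4% of all genes. The log2 ratios ran from -0.22 for *Hadha* to 0.50 for *Fabp4*, with a median of 0.03. The quartiles of the 31 genes were -0.02 and 0.12, and those of all genes -0.13 and 0.14. In 17 of the 31 genes (54.8%) the log2 ratio was within 0.1 of 0, as it was in 39.6% of all genes. The 31 genes had a higher level, with a median of 28.2 FPKM in WT against 9.62 for all genes. The shares and quartiles given here are not matched for level, and genes with low FPKM scatter more. In KD 20 of the 31 genes (64.5%) were higher and 11 lower, beside 50.9% of all genes higher. *Fabp4* and *Cpt1a* are among the 20 and met the minimum in KD alone; with 1 FPKM required in both groups 18 genes were higher and 11 lower. With each group divided by its sum over all genes, which lowers the median ratio of all genes to -0.02, 16 were higher and 15 lower, beside 45.1% of all genes higher. In bulk tissue, fewer cells of a type and less RNA per cell cannot be told apart.

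**Figure D2:**
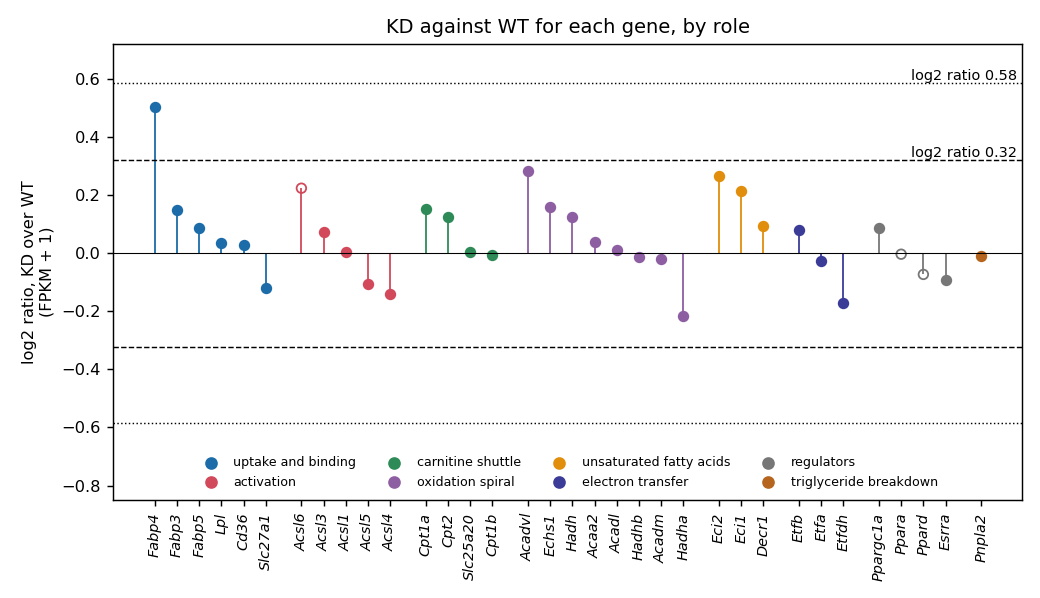
Log2 ratio of KD over WT on the log2(FPKM + 1) scale for each of the 34 genes, coloured by role; open circles are the 3 genes below 1 FPKM in both groups, dashed lines mark a log2 ratio of 0.32 and dotted lines 1.5-fold, in both directions. Fabp4 alone lies beyond a dashed line, and no gene reaches a dotted line.

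Genes with low FPKM scatter more, so the comparison was also made within bands of the mean of the group values. Below 5 FPKM, where 3 of the genes lie, 24.7% of all genes differed by a log2 ratio of at least 0.32 in either direction, against 6.38% of genes from 100 FPKM upwards, where 8 of the genes lie. In each of 4 bands every one of the fatty acid genes was inside the 5th to 95th percentile of all genes of its band. *Acadvl* was the nearest to a bound, at 0.28 where the 95th percentile was 0.30 in the band from 20 to 100 FPKM. *Fabp4* came next, at 0.50 with a 95th percentile of 0.53, and on the lower side *Hadha* was at -0.22 with a 5th percentile of -0.27.

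**Figure D3:**
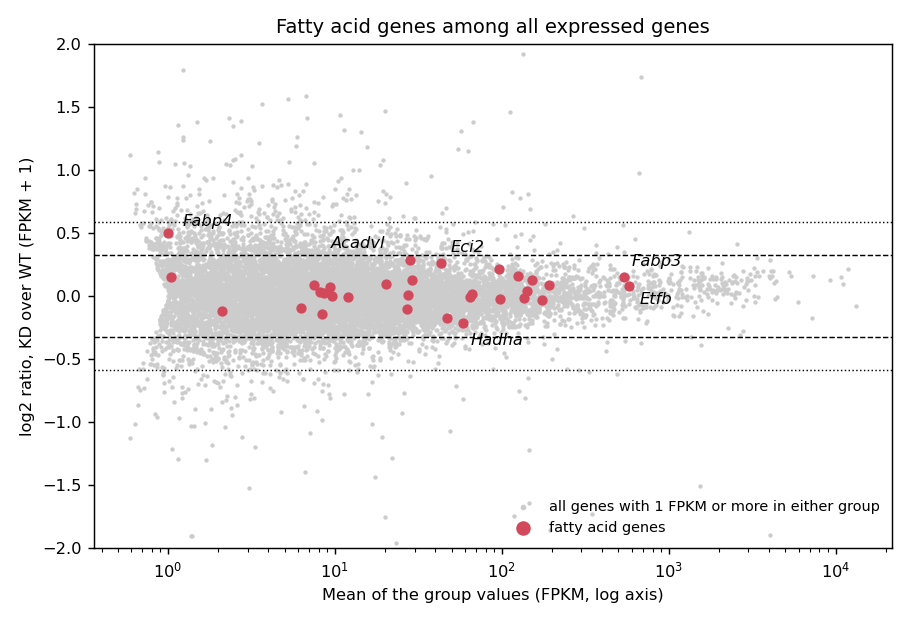
Log2 ratio of KD over WT against the mean of the group values in FPKM (log axis) for the 11606 genes with at least 1 FPKM in either group (grey) and the 31 fatty acid genes among them (red); dashed lines mark a log2 ratio of 0.32 and dotted lines 1.5-fold, in both directions, and 66 genes lie outside the vertical axis. The red points lie between -0.22 and 0.50, inside the grey cloud, with Fabp4 and Acadvl just below the 95th percentile of their FPKM bands.

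Genes of uptake and intracellular binding spanned the widest range. *Fabp3*, the fatty acid-binding protein of heart and skeletal muscle, lies on chromosome 4 from 130308778 to 130315463 and had 513 FPKM in WT and 569 in KD. Its WT level was above that of 97.4% of the expressed genes. *Fabp5*, a binding protein found in many tissues, had 186 FPKM in WT and 197 in KD, so *Fabp3* was 2.77 times as high as *Fabp5* in WT and 2.89 times as high in KD. The heart-type gene was thus the highest of the 3 fatty acid-binding protein genes of the set in both groups, by a similar factor over *Fabp5*. The value of *Fabp3* carries some uncertainty, because 29.2% of the 50-base words of its transcripts also occur in the pseudogene *Fabp3-ps1*.

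*Cd36*, a membrane receptor for long-chain fatty acids, had 8.49 FPKM in WT and 8.67 in KD. *Lpl*, the lipoprotein lipase that frees fatty acids from circulating triglyceride, had 8.08 and 8.30 FPKM. Both log2 ratios, 0.03 and 0.03, were within the central quartiles of all genes. *Slc27a1*, a fatty acid transport protein, was lower, with 2.23 FPKM in WT and 1.98 in KD (log2 ratio -0.12).

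*Fabp4*, a binding protein of adipocytes, macrophages and capillary endothelium, was the gene with the largest difference. It lies on chromosome 3 from 10204343 to 10208576 and had 0.654 FPKM in WT and 1.34 in KD. The ratio of these values without a pseudocount is 2.05, while the log2 ratio is 0.50 with a pseudocount of 1, 0.94 with 0.1 and 1.04 with none, so that at a pseudocount of 0.1 or none *Fabp4* is beyond 1.5-fold. *Fabp4* met the minimum of 1 FPKM in KD alone, so that it had to be higher there, and with at least 1 FPKM required in both groups 0 of 29 genes were beyond 0.32. Some other cell type markers were also higher in KD. Of 10 endothelial and endocardial markers 7 were higher and 3 lower, with log2 ratios from -0.25 to 0.48, and their summed level was 356 FPKM in WT and 438 in KD. The highest of them was *Plvap*, an endothelial protein of fenestrae and caveolae, with 129 and 179 FPKM. *Egfl7* had 71.4 and 89.1 FPKM and *Emcn* 43.1 and 57.4 FPKM. The difference in the sum lies mainly in *Plvap*, *Egfl7* and *Emcn*. *Kdr* (log2 ratio 0.20), *Npr3* (0.18), *Tie1* (0.10) and *Pecam1* (0.04) were higher by less. The 3 lower were *Cdh5*, the endothelial cadherin, with 10.5 and 9.74 FPKM, *Tek* (log2 ratio -0.19) and *Nfatc1* (-0.25). Of 7 epicardial markers the 6 that met the minimum were higher by 0.45 to 1.31, *Aldh1a2* through its KD value alone, and their sum with *Msln* was 47.1 FPKM in WT and 96.0 in KD. Of the 6 macrophage markers listed, only *Lyz2* met the minimum, with 20.3 and 16.5 FPKM, and *Csf1r*, the receptor that defines the lineage, had 0.36 and 0.24 FPKM. The part of these cell types in the *Fabp4* values was not tested.

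Activation to acyl-CoA is done by long-chain acyl-CoA synthetases, of which 5 genes were followed. *Acsl5* was the highest, with 28.2 FPKM in WT and 26.1 in KD (log2 ratio -0.11). *Acsl1*, the leading isoform of the adult heart, had 9.56 FPKM in WT and 9.58 in KD, about the level of *Acsl3*, with 9.06 and 9.57 FPKM. The ratio of *Acsl1* to *Acsl3* was 1.06 in WT, and both genes were level in KD. *Acsl4*, which prefers arachidonic acid, had 8.82 and 7.90 FPKM (log2 ratio -0.14). *Acsl6*, an isoform of brain and red blood cells, was below the minimum in both groups, with 0.568 and 0.830 FPKM. The synthetases thus shared 1 order of magnitude apart from *Acsl6*, and none of the 4 that met the minimum differed by 0.32 on the log2 scale.

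*Cpt1b*, the muscle isoform of the carnitine palmitoyltransferase of the outer mitochondrial membrane that limits entry into β-oxidation, far exceeded the liver isoform *Cpt1a*. Its gene spans chromosome 15 from 89416405 to 89429927. The level of *Cpt1b* was 64.8 FPKM in WT and 64.5 in KD. *Cpt1a* had 0.930 FPKM in WT and 1.14 in KD, and met the minimum in KD alone. The ratio of *Cpt1b* to *Cpt1a* was 69.6 in WT and 56.4 in KD, or 34.1 and 30.6 with 1 FPKM added to each value. The muscle isoform was therefore the main *Cpt1* transcript in both groups, although the value of *Cpt1b* is less certain than most. Its locus in the table overlaps *Chkb*, a choline kinase gene with 28.5 FPKM in WT and 29.4 in KD, and 78.6% of its 50-base words occur in the annotated gene *Gm44502*. *Cpt2*, the transferase of the inner membrane, had 27.7 FPKM in WT and 30.3 in KD. *Slc25a20*, the carrier that exchanges acylcarnitine for carnitine, had 27.2 and 27.3 FPKM, close to *Cpt2* in both groups.

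The enzymes of the β-oxidation spiral were high throughout, between 25.4 FPKM for *Acadvl* and 146 FPKM for *Hadh* in WT. The acyl-CoA dehydrogenases take the first step and differ in the chain length they accept. *Acadm*, for medium chains, had 98.4 FPKM in WT and 97.0 in KD, and *Acadl*, for long chains, had 66.2 and 66.8 FPKM. *Acadvl*, for very long chains, was the lowest of the 3 in both groups and had the largest log2 ratio of the spiral (0.28), with 25.4 FPKM in WT and 31.1 in KD. It lies on chromosome 11 from 70010192 to 70015407. The microRNA gene *Mir324*, whose locus overlaps that of *Acadvl*, was listed at 59.7 FPKM in WT and at 0 in KD, and how reads were divided between the overlapping genes was not tested.

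The later steps lie in *Echs1*, *Hadh*, *Acaa2* and the trifunctional protein. *Echs1*, the short-chain enoyl-CoA hydratase, had 118 FPKM in WT and 132 in KD (log2 ratio 0.16). *Hadh*, the dehydrogenase of the third step for shorter chains, had 146 and 159 FPKM (0.12). *Acaa2*, the thiolase of the last step, had 140 and 144 FPKM (0.04). These 3 genes were somewhat higher in KD, all by less than 0.32 on the log2 scale.

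*Hadha* and *Hadhb* encode the α and β subunits of the trifunctional protein, which carries out the later steps for long chains at the inner membrane. The genes lie head to head on chromosome 5, the arrangement that the study examined for lncRNAs. In the RefSeq annotation of GRCm38.p6 their starts, at 30154980 for *Hadha* on the minus strand and at 30155253 for *Hadhb* on the plus strand, are separated by 272 bases. The sequence that lies in the promoter windows of both genes is shown because it serves as upstream sequence of both genes, at chr5:30155003-30155230 (GRCm38.p6) on the plus strand, 5′ to 3′ towards *Hadhb*. It holds 228 bases, 57% G or C and 15 CpG dinucleotides.
Hadha and Hadhb: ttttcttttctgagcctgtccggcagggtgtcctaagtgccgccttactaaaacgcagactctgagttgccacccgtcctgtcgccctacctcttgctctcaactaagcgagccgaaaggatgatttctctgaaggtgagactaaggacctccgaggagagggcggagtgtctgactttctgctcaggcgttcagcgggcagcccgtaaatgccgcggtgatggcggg

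The levels of the paired genes were not equal. *Hadha* had 63.4 FPKM in WT and 54.4 in KD, the lowest log2 ratio of the set (-0.22). *Hadhb* had 137 FPKM in WT and 135 in KD (-0.01). The ratio of *Hadhb* to *Hadha* was 2.16 in WT and 2.49 in KD. The value of *Hadhb* carries some uncertainty, since 19.7% of its 50-base words occur in other genes, mostly the annotated gene *Gm13910*. The *Hadha* locus overlaps 2 further listed genes, which were at most at 0.25 FPKM.

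Unsaturated fatty acids need auxiliary enzymes, and all 3 of their genes were higher in KD, where 50.9% of all genes were higher. *Eci1*, an enoyl-CoA isomerase of mitochondria, had 89.2 FPKM in WT and 104 in KD (log2 ratio 0.21). *Eci2*, a second isomerase found in mitochondria and peroxisomes, had 39.3 and 47.5 FPKM (0.27). *Decr1*, the dienoyl-CoA reductase, had 19.6 and 20.9 FPKM (0.09). Their sum was 148 FPKM in WT and 172 in KD, a ratio of 1.16, the highest of the roles with more than 1 gene. None of the 3 reached a log2 ratio of 0.32.

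Electrons from the dehydrogenases pass through the electron transfer flavoprotein, whose subunits are encoded by *Etfa* and *Etfb*, to the quinone oxidoreductase encoded by *Etfdh*. *Etfb*, on chromosome 7 from 43444143 to 43457782, was the highest gene of the set, with 561 FPKM in WT and 592 in KD (log2 ratio 0.08). *Etfa* had 175 and 171 FPKM (-0.03), and *Etfdh* had 49.6 and 43.9 FPKM (-0.17). The subunit genes were thus unequal, with a ratio of *Etfb* to *Etfa* of 3.21 in WT and 3.46 in KD. Of the 50-base words of *Etfb*, 44.8% occur in other annotated genes, mostly *Gm45233*, so its level is uncertain. Over the 14 genes of the spiral, the auxiliary enzymes and electron transfer, 9 were higher and 5 lower in KD, with a median log2 ratio of 0.06, where 50.9% of all genes were higher. With group sums as the scaling *Acadl* turned from 0.01 to -0.02.

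The 4 regulator genes of the set had WT levels below the median of all expressed genes, 9.62 FPKM. *Ppara*, the receptor best known for driving fatty acid oxidation genes, had 0.070 FPKM in WT and 0.067 in KD, and *Ppard*, a receptor of the same family, had 0.586 and 0.507 FPKM. Both were below the minimum in both groups, and so was *Pparg*, the adipocyte receptor of the family, with 0.42 and 0.40 FPKM. *Esrra*, an estrogen-related receptor that activates mitochondrial genes, had 6.46 FPKM in WT and 6.00 in KD (log2 ratio -0.09), and its relative *Esrrg* had 11.3 and 11.0 FPKM (-0.04). *Ppargc1a*, the coactivator of both receptor families, had 7.28 FPKM in WT and 7.79 in KD (0.09). *Esrrb*, the remaining estrogen-related receptor gene, had 0.72 and 0.58 FPKM, below the minimum in both groups. *Esrra* and *Esrrg* were thus above the 3 genes of the other family in both groups. The order of *Esrrb* and those 3 genes is uncertain, since all of them were under 1 FPKM. *Esrra* overlaps *Trmt112*, a gene with 166 FPKM in WT and 170 in KD, so its value is less certain. *Pnpla2*, the lipase that starts the breakdown of stored triglyceride, had 12.1 FPKM in WT and 12.0 in KD (-0.01).

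Promoter windows from RefSeq (GRCm38.p6, from 250 bases before to 50 bases after the start) were matched by symbol for 28 of the 34 genes, with 33 windows in all; *Lpl*, *Fabp4*, *Fabp5*, *Cpt1b*, *Acaa2* and *Decr1* were not matched. Both strands were searched for 3 sets of letters, of which the first and the last can overlap. TCAAGGTCA, the site of estrogen-related receptors, was in 1 of the 33 windows (*Acsl6*) and in 0.423% of all 32851 windows. AGGTGTGA, a T-box site, was in 0 of the 33 and in 1.28% of all windows. AGGTCA repeated with 1 base between, the DR1 site of peroxisome proliferator-activated receptors, was in 0 of the 33 and in 0.0396% of all windows. The match is shown because it is the only one in the set, at chr11:54303597-54303725 (GRCm38.p6) on the plus strand, with the site in capitals as it reads on the opposite strand. It lies 167 bases before the start of *Acsl6*, a gene below 1 FPKM in both groups.
Acsl6: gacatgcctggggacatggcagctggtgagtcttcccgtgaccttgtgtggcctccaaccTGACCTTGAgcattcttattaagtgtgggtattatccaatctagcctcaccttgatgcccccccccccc

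The log2 ratios of the set were also set beside the length of the transcripts. For the 15 genes whose longest coding transcript was shorter than 2242 bases, 12 were higher and 3 lower in KD, with a median of 0.09, and for the 16 genes at or above that length 8 were higher and 8 lower, with a median of -0.00. Over all genes with a length, the 3149 shorter ones included 1837 higher and 1312 lower, with a median of 0.04, and the 6940 longer ones 3267 higher and 3673 lower, with a median of -0.01. Spearman's rho between length and log2 ratio was -0.41 over the 31 genes and -0.15 over 10089 genes, a description across genes that share the same libraries. *Fabp4*, among the shorter genes, and *Cpt1a*, among the longer ones, met the minimum in KD alone. Without them 11 of 14 shorter and 7 of 15 longer genes were higher, and rho was -0.45 over 29 genes, beside -0.16 over the 9663 genes with 1 FPKM in both groups, a setting chosen after seeing the data. With the median of all genes in the same length class (10 classes of equal size) subtracted, also chosen after seeing the data, 18 of the 31 genes were higher and 13 lower, and their median was 0.02. The part of transcript length in the values of single genes was not tested.

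**Figure D4:**
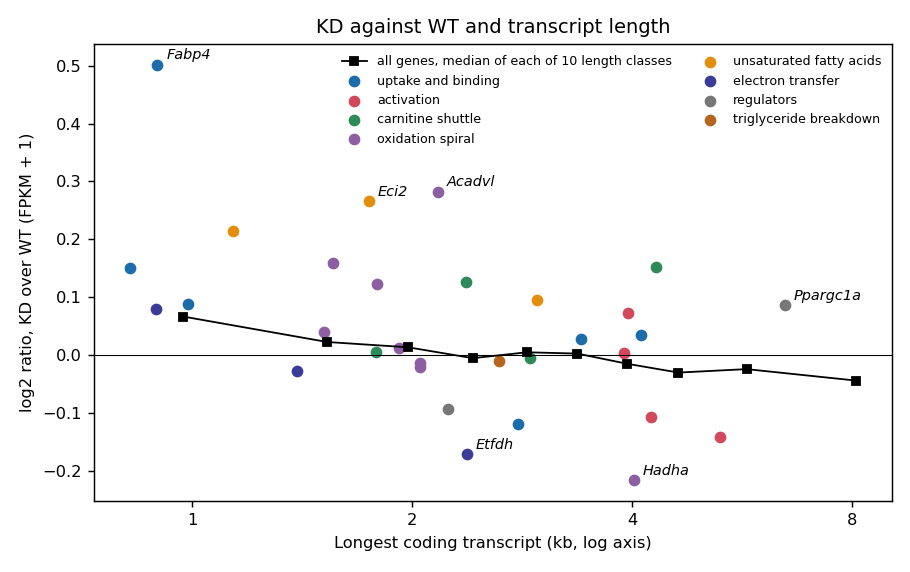
Log2 ratio of KD over WT on the log2(FPKM + 1) scale against the length of the longest coding transcript in kilobases (log axis) for the 31 genes, coloured by role; the black line joins the median of all genes in each of 10 length classes. The line runs from 0.07 in the shortest class to -0.04 in the longest, and single genes scatter widely around it, with Hadha at -0.22 and the still longer Cpt1a and Ppargc1a at 0.15 and 0.09.

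Other genes of fatty acid metabolism, 116 in all, were compared in the same way, and 85 of them met the minimum. Of these, 51 were higher and 34 lower in KD, where 50.9% of all genes were higher, and their median log2 ratio was 0.07. At 1.5-fold 0 were higher and 0 lower. At a log2 ratio of 0.32 the numbers were 7 higher and 1 lower of 85, where 8.8% of all genes were higher and 6.4% lower. At this pseudocount and minimum the share higher was near that of all genes. Those higher were *Acot1* (0.41), an acyl-CoA thioesterase, *Lipe* (0.40), the hormone-sensitive lipase, *Acox3* (0.40), a peroxisomal acyl-CoA oxidase, *Lmf1* (0.38), which matures lipoprotein lipase, *Mlycd* (0.34), which breaks down malonyl-CoA, *Slc22a5* (0.33), the carnitine transporter, and *Ucp2* (0.33), an uncoupling protein. The one lower was *Acad12* (-0.33), with 1.74 FPKM in WT and 1.17 in KD. *Lipe* and *Acox3* met the minimum in KD alone and so had to be higher there, and with 1 FPKM required in both groups 5 genes were higher. These are for the most part genes of low level, led by *Lmf1* with 21.6 and 28.4 FPKM. The 8 genes were singled out at 0.32 after their values were seen. Their number depends on the setting. It was 3 higher and 0 lower with at least 5 FPKM in either group. With a pseudocount of 0.1 or none it was 12 higher and 5 lower.

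The split between higher and lower genes varied among the subgroups. In the subgroup of activation and carnitine esters 10 of 12 were higher, with a median log2 ratio of 0.22. The highest level was that of *Acot13*, a thioesterase with 145 FPKM in WT and 172 in KD. The thioesterases *Acot1* (0.41), *Acot2* (0.24) and *Acot13* (0.24) are in this subgroup but are not genes of activation. Of the acyl-CoA synthetase genes in it, *Acss1* (0.21) and *Acss2* (0.25) were higher and *Acsf2* (-0.27) and *Acsf3* (-0.11) lower. Of the genes listed under other mitochondrial oxidation, not all of them mitochondrial (*Decr2*, *Echdc1*), 14 of 24 were higher (median 0.07). They were led by *Hsd17b10*, a dehydrogenase of branched acyl-CoA breakdown, with 158 and 174 FPKM. Of the peroxisomal genes 7 of 11 were higher (0.08), led by *Scp2*, a thiolase and lipid carrier, with 45.2 and 49.5 FPKM. Genes of triglyceride stores had 7 of 10 higher (0.07), led by the droplet coat gene *Plin3* with 45.7 and 51.0 FPKM. Of the transport and binding genes 5 of 8 were higher (0.04), led by *Dbi*, the acyl-CoA-binding protein, with 678 and 688 FPKM, the highest level of any gene in the pathway. The regulators alone had more genes lower than higher, 12 against 8 (median -0.04). *Tfam*, a mitochondrial transcription factor and the highest of them in WT but not in KD, had 21.5 FPKM in WT and 17.9 in KD (-0.26). The regulators also had the longest transcripts, with a median of 4542 bases where the other subgroups ran from 2710 to 3004 bases. The difference between the subgroups was not tested.

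**Figure D5:**
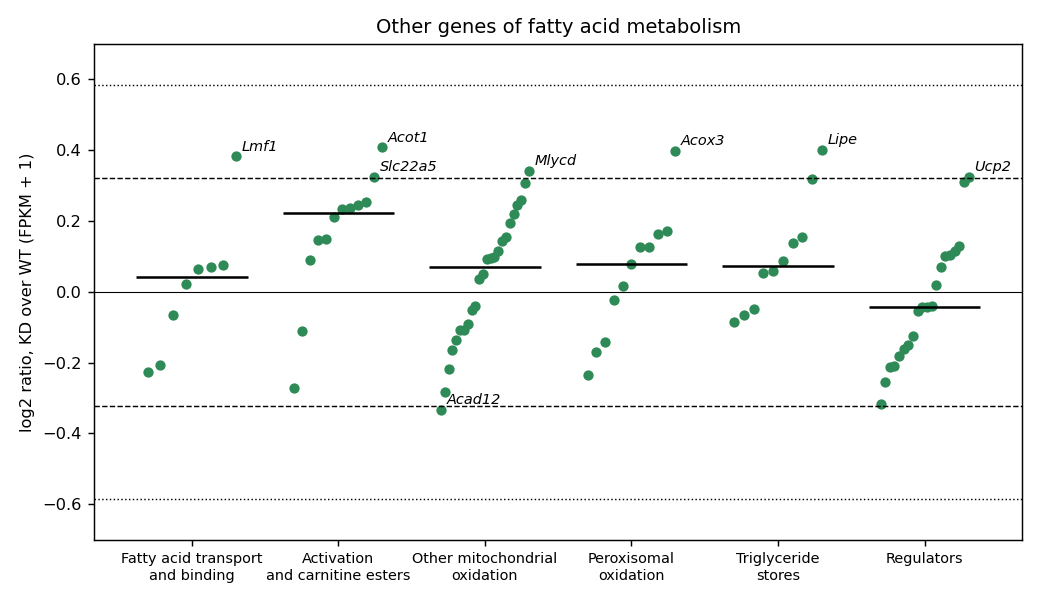
Log2 ratio of KD over WT on the log2(FPKM + 1) scale for the 85 other genes of fatty acid metabolism, 1 point per gene in order of value, by subgroup; black bars are medians, dashed lines mark a log2 ratio of 0.32 and dotted lines 1.5-fold, in both directions, and genes beyond a dashed line are named. The medians lie between -0.04 for the regulators and 0.22 for activation and carnitine esters, a subgroup that also holds thioesterases. No point reaches a dotted line.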

How the data were processed

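Per the submitters' processing notes, TopHat, Bowtie2 and Cuffdiff were used on mm10; versions, annotation and strand settings are not given in the sources used here. Libraries were made from 10 ng of total RNA by Smart-Seq2, with 12 cycles of preamplification and 9 of enrichment PCR, which can favour some transcripts. The authors deposited 1 FPKM value per gene for WT and 1 for KD (named KO in the table), each from 3 libraries. Their fold changes, p-values and q-values, also in the table, were not used. *Actc1* and *Rn45s*, listed as having too many reads, were left out. Columns of single embryos were not part of the table, so no test was made here.

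Log2 ratios were computed with a pseudocount of 1 for genes with at least 1 FPKM in either group. They were counted at 1.5-fold and at a log2 ratio of 0.32. The arithmetic alone was checked, on simulated group values with set folds and no noise, made from WT values of at least 5 FPKM. Transcript lengths (longest coding transcript) and shared 50-base words came from GENCODE M21. All 34 loci overlapped the GENCODE gene of the same name, and starts are given with 1 added (12 members then matched a transcript start, 1 without). Named genes were all members, the other genes of the pathway beyond 1.5-fold and the highest of each subgroup by WT level; those beyond 0.32 and *Pparg*, *Esrrg*, *Esrrb* and the markers were added after their values were seen. The members and lists were chosen with earlier results of these data known. The alternatives were other pseudocounts, filters, folds and scalings, loci without overlap, and, added after seeing the data, at least 1 FPKM in both groups and a correction for transcript length. Calculations ran in Python 3.11.15 with pandas 2.3.3, SciPy 1.17.1 and NumPy 2.4.6, and plots were drawn with Matplotlib 3.10.9.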

Additional observations from a re-analysis of the deposited data

How the results depend on the processing

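No paired analysis was possible because single embryos have no values of their own in the table, and for the same reason no replicate could be left out. Of the 31 genes 0 were higher by 1.5-fold, and 1 was (*Fabp4*) with a pseudocount of 0.1 or none. At a log2 ratio of 0.32, 1 was higher, and 0 with at least 5 FPKM in either group or, chosen after seeing the data, 1 FPKM in both. The count lower stayed at 0 at both limits under each setting run, and the median log2 ratio stayed between 0.01 (group sums) and 0.04. For the other genes of the pathway, 7 higher and 1 lower at 0.32 became 12 and 5 with a pseudocount of 0.1 and with none. They became 3 and 0 with at least 5 FPKM in either group, and 4 and 2 with group sums. With the length correction, chosen after seeing the data, 0 were lower. The shares of 8.8% and 6.4% of all genes hold for the main setting alone. The changed counts have no such share beside them and are not read as a result about the pathway. The ratio of *Cpt1b* to *Cpt1a* moved by over 1.5 times with 1 FPKM added. With the depth unknown, values near or under 1 FPKM are the least certain. Among them are *Fabp4*, *Cpt1a*, *Acsl6*, *Ppara* and *Ppard* in the set, and *Esrrb* and *Pparg* outside it.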
